A study of Mus musculus with 6 samples.

Results

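The 9 genes described here encode components of the complement system and the receptors of its anaphylatoxins: C1qa, C1qb and C1qc, C3, Cfb, Cfp, C6, C3ar1 and C5ar1. They were chosen by symbol, each symbol was matched to 1 Ensembl gene of the 55421 in the count table, and all 9 were among the 14469 genes that passed the filter on low counts and were tested. The 3 C1q genes were lower in TAMs of Pdcd1f/fLysMcre mice, at 65.4% to 68.4% of the control mean. Cfb, at 52.4% of the control mean, and C6, which had few counts, were also lower. C3, Cfp and the receptor genes C3ar1 and C5ar1 did not pass the test. The genotypes also differed in Xist and Y-linked transcripts, with values given beside Cfp. For each of the 9 genes, the share of female cells and the genotype cannot be told apart.

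Complement is a cascade of plasma proteins, most of them made by the liver, and macrophages make some of them locally in tissues and tumors. C1q, a bundle of A, B and C chains, binds antibody on a surface or apoptotic debris and starts the classical pathway through the proteases C1r and C1s, which cleave C4 and C2. All pathways meet at the cleavage of C3. The alternative pathway amplifies this step with factor B (Cfb) and properdin (Cfp), and the terminal components, C6 among them, build the membrane attack complex. The fragments C3a and C5a, the anaphylatoxins, act on leukocytes through the receptors C3aR1 and C5aR1.

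TAMs, tumor-associated macrophages, were isolated at day 15 from tumors of M17 cells, as the labels name them (MC17-51 fibrosarcoma in the study's methods), grown under the skin of mice that were 8 to 12 weeks old at implantation. The control mice were Pdcd1f/f, with floxed alleles of Pdcd1 (the gene of PD-1) and no Cre, and the other mice were Pdcd1f/fLysMcre, with the same floxed alleles and Cre expressed from the lysozyme M promoter, which is active in macrophages, monocytes and neutrophils. RNA-seq was done on 3 libraries of each genotype. The labels call the cells CD11b+F4/80+, and the study's methods describe a gate on live CD45+CD11b+F4/80+Ly6G- cells. The methods give this gate for TAMs of the study's Shp2f/f and Shp2f/fLysMCre mice and do not name the Pdcd1 mice there. They also describe experiments with males and females in equal number. Whether each library came from 1 mouse or from pooled mice is not given in the sources used here. The p-values set the genotype difference against the variation between these libraries, which may not be the variation between mice.

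The libraries held 41833823 to 51417209 counts on genes. Pdcd1 itself had 10, 12 and 15 counts in the control libraries and 7, 16 and 11 in the Pdcd1f/fLysMcre libraries (log2 fold change -0.25, SE 0.45, edgeR adjusted p = 0.771), and a count over the whole gene does not show the loss of the floxed exons. Lyz2, into which the LysM Cre is inserted, had a mean of 216864 ± 8638 normalized counts in the controls and of 427 ± 33.4 in the Pdcd1f/fLysMcre libraries (SD, n = 3). Lyz2 thus separated the libraries by labelled genotype. The labels do not give the number of Cre alleles. The near loss of Lyz2 transcript and the deletion of Pdcd1 cannot be told apart in these libraries. Markers of macrophages summed to 265415 to 293491 normalized counts in the control and 245599 to 251589 in the Pdcd1f/fLysMcre libraries. The summed markers of T cells (34.0 to 63.8 over all libraries), B cells (169 to 209 in the controls and 120 to 149 in Pdcd1f/fLysMcre TAMs, without overlap) and NK cells (2.86 to 14.8) were low. Ly6g, the marker gated out in the description for the Shp2 mice, was at most 2.95. Control replicate 1 and Pdcd1f/fLysMcre replicate 2 stood apart from the others of their genotype. Their deviation from the genotype mean fell with the GC content of the genes (Spearman rho across 14454 genes of -0.577 and -0.488), whereas rho was 0.117 to 0.509 in the other 4 libraries.

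The sequences just upstream of the transcription start are shown for the genes that passed the test and had an entry among the RefSeq promoter sequences of GRCm38.p6. These were C1qb, C1qc and C6, of 7 of the 9 genes with an entry. C1qa and Cfb had none. Each run has 250 bases before the RefSeq start and 50 bases from it on, is read on the strand of the gene, and lies at chr4:136886151-136886450 (minus strand) for C1qb, chr4:136892865-136893164 (minus strand) for C1qc and chr15:4726960-4727259 (plus strand) for C6. Capitals mark matches, on either strand, to the PU.1 core GAGGAA, an NF-kB pattern (GGG, any 5 bases and CC) and the MAF half-site TGCTGA. The interferon-stimulated response element, ISRE (GAAA, any 2 bases and GAAA), was searched too.
C1qb: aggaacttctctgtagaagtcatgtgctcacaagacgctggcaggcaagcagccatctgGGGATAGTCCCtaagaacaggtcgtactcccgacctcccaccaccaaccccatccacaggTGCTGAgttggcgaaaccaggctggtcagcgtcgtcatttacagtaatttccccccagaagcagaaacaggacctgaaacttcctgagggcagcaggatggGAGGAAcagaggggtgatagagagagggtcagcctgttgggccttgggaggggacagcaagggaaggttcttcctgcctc
C1qc: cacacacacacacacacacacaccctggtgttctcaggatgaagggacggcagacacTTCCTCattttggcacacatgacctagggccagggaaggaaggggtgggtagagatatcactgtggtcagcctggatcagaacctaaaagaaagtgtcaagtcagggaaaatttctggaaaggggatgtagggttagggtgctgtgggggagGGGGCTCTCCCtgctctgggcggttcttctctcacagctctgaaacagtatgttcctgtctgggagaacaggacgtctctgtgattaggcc
C6: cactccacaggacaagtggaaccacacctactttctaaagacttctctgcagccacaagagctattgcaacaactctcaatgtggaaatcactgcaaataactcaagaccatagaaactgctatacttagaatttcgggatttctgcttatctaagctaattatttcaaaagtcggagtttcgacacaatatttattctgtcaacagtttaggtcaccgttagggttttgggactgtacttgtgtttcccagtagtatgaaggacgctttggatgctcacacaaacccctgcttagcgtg

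In C1qb the PU.1 core began at -30 and the MAF half-site at -131, counted from the start site as 0, and matches to the NF-kB pattern began at -191 and -190. In C1qc the PU.1 core lay at -193 on the opposite strand, and overlapping matches to the NF-kB pattern began at -41 and -40. The C6 window held none of these letters. Of the 7 promoters, 3 held the PU.1 core (C1qb, C1qc and Cfp), 5 the NF-kB pattern, 4 the MAF half-site and 0 the ISRE. The same letters occurred in 28.3%, 50.8%, 19.5% and 3.44% of all 32851 promoters of the same length, so each of these matches is common and is given as a description of the sequence.

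The chains of C1q were among the most abundant transcripts of these TAMs. Levels were taken as normalized counts per kb of exon, over all annotated exons of a gene, and ranked by the mean of all 6 libraries. C1qb ranked 22nd and C1qa 30th of the genes tested, followed by Cfp (97th), C1qc (102nd), C3ar1 (309th), C5ar1 (325th), C3 (520th), Cfb (8150th) and C6 (14194th). The annotated length was 1931 bases for C1qc, 1040 for C1qa and 1088 for C1qb. Ranks between genes depend on these lengths, which need not be those of the transcripts present. In the control libraries the levels per kb were 58726 ± 7644 for C1qb and 50482 ± 8479 for C1qa (SD, n = 3). These SDs overlapped, but C1qb was above C1qa in each of the 6 libraries. C1qc, at 20955 ± 2996, and Cfp, at 19285 ± 2730, had overlapping SDs too. So did C3ar1, at 6822 ± 120, and C5ar1, at 6569 ± 298, and C5ar1 was the higher of these in control replicate 3 (6908 against 6863 per kb). C3 had 4599 ± 298 per kb, Cfb 178 ± 33.9 and C6 4.48 ± 0.119. The level of Cfb is uncertain, because 2246 of its 2825 exon bases are shared with the overlapping gene Gm20547 on the same strand, which leaves 579 bases of its own, and Gm20547 itself had 0 counts in every library.

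**Figure D1:**
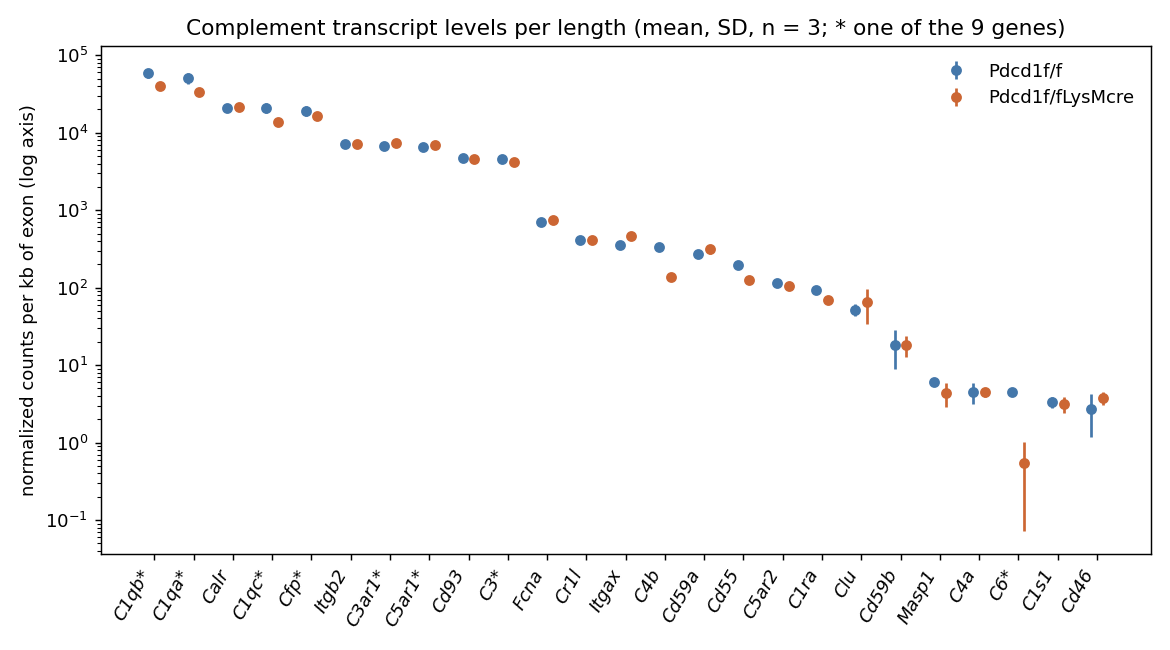
Mean level of complement genes tested, in normalized counts per kb of exon on a log axis, with SD over 3 libraries for Pdcd1f/f (blue) and Pdcd1f/fLysMcre (orange). Genes are ordered by level and asterisks mark those of the 9 genes; Cfb, Itgam and C2, whose exons overlap another gene, are not drawn. C1qb and C1qa have the highest levels in both genotypes, and C6 falls from 4.48 to 0.544.

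In the Pdcd1f/fLysMcre libraries the levels per kb were 40187 ± 3986 for C1qb, 33036 ± 3541 for C1qa, 16545 ± 1468 for Cfp, 13824 ± 1107 for C1qc, 7424 ± 309 for C3ar1, 6860 ± 179 for C5ar1 and 4226 ± 306 for C3 (SD, n = 3). The order of Cfp and C1qc was the reverse of that in the controls. Cfp was below C1qc in each control library (for instance 16204 against 17618 per kb in replicate 1) and above it in each Pdcd1f/fLysMcre library (16753 against 14027 in replicate 1).

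Of the 9 genes, 5 passed the threshold of an adjusted p under 0.05 as lower in Pdcd1f/fLysMcre TAMs and 0 as higher, where 3.01% of all genes tested passed as lower and 2.42% as higher. In either direction the share was 5.43%. The test was the quasi-likelihood F test of edgeR, with p-values adjusted over all 14469 genes by the method of Benjamini and Hochberg. At an unadjusted p under 0.05, which 11.9% of all genes reached as lower and 12.3% as higher (24.2% in either direction), the 9 genes gave the same counts, 5 lower and 0 higher. So did DESeq2, which called 10.6% of all genes. C6, 1 of the 5, passed the filter on low counts through the control libraries alone, so it could only be called lower. With at least 10 counts required in every library, 4 of 8 genes passed, all as lower. Beside them, 816 of 13164 genes passed in either direction. The median log2 fold change of the 9 genes was -0.55, beside -0.00258 over all genes tested, and 7 of the 9 values were negative. The groups did not overlap for 5 genes that were lower, C6 among them, and for 1 that was higher (C3ar1). Of all genes, 13.1% and 14.1% did not overlap in these directions and 27.2% in either. The number of these genes past the threshold depended on single libraries. It was 6 without control replicate 1, 1 without control replicate 2 or without Pdcd1f/fLysMcre replicate 1, and 2 without Pdcd1f/fLysMcre replicate 2. Over all genes tested, the 786 calls with all libraries became 3181, 224, 222 and 370 in the same fits. In bulk RNA, fewer cells of a type and less RNA per cell cannot be told apart.

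**Figure D2:**
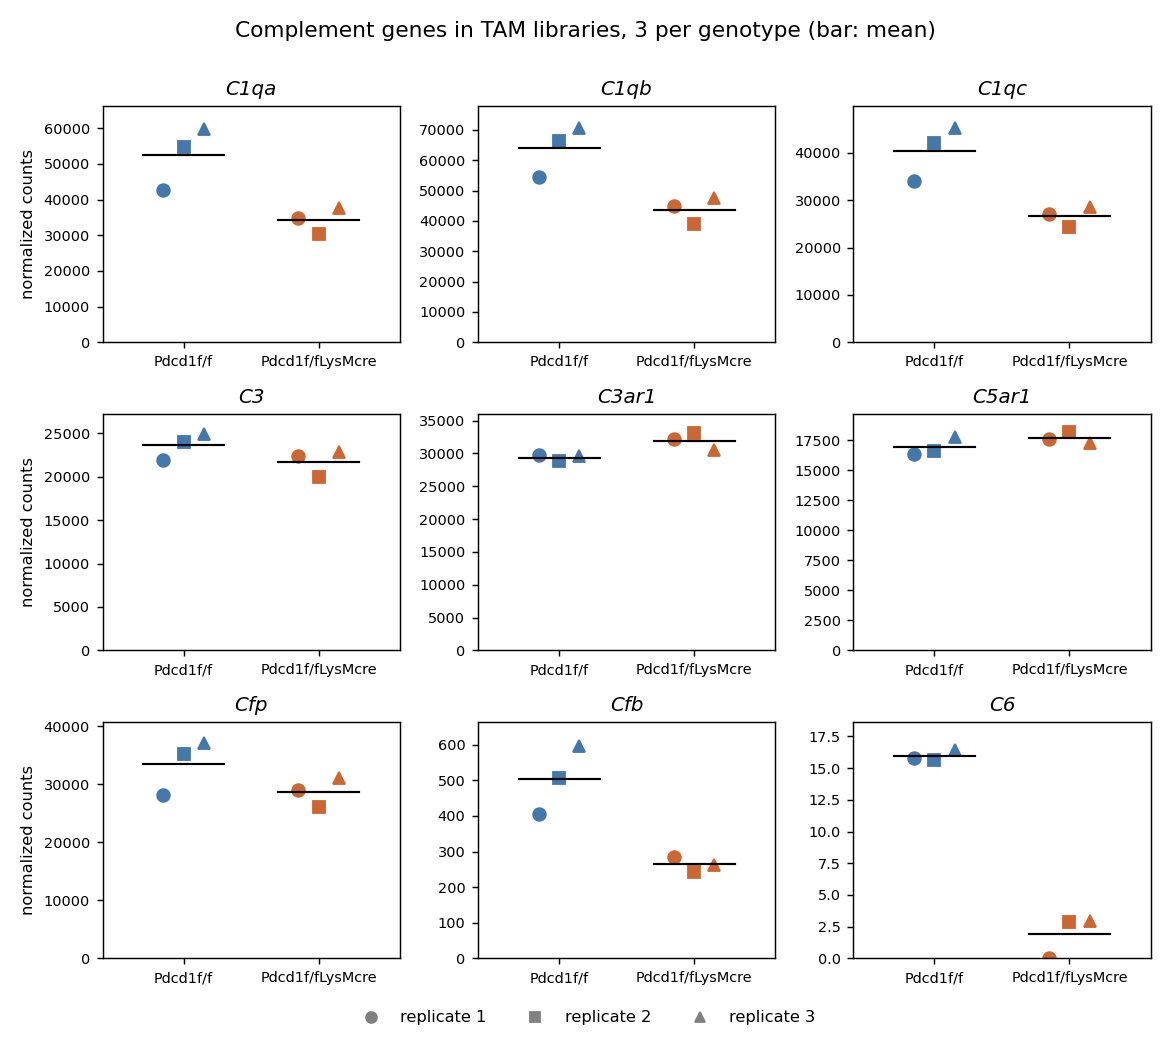
Normalized counts of each of the 9 genes in every library, with symbols for the replicate and a bar at the mean of 3; the y axes start at 0 and differ between genes. The 2 genotypes do not overlap for C1qa, C1qb, C1qc, Cfb and C6, which are lower in Pdcd1f/fLysMcre, nor for C3ar1, which is between 30523 and 33152 in Pdcd1f/fLysMcre and between 28787 and 29779 in the controls.

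C1qa, C1qb and C1qc (ENSMUSG00000036887, ENSMUSG00000036905 and ENSMUSG00000036896) encode the A, B and C chains of C1q. C1qa lies at chr4:136895917-136898803, C1qc at chr4:136889804-136893065 and C1qb at chr4:136880129-136886187 of GRCm38, all on the minus strand and within 18.7 kb. C1qa had 42744, 54858 and 59901 normalized counts in the control libraries and 34943, 30418 and 37713 in the Pdcd1f/fLysMcre libraries. The highest Pdcd1f/fLysMcre library was below the lowest control. The log2 fold change was -0.61 (SE 0.12, edgeR adjusted p = 0.0163).

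C1qb had 54597, 66458 and 70628 normalized counts in the controls and 44781, 38955 and 47434 in Pdcd1f/fLysMcre TAMs (log2 fold change -0.55, SE 0.10, edgeR adjusted p = 0.0135). C1qc had 34021, 42162 and 45213 in the controls and 27085, 24389 and 28608 in Pdcd1f/fLysMcre TAMs (log2 fold change -0.60, SE 0.10, edgeR adjusted p = 0.00859). In each of the 3 genes, control replicate 1 and Pdcd1f/fLysMcre replicate 2, the libraries that stood apart by GC content, were the lowest of their genotype. The exons of these genes are GC-rich, with 59.5%, 57.4% and 57.5% GC for C1qa, C1qb and C1qc against a median of 49.2% over the genes tested. When each library was corrected for GC content and exon length by offsets, which called 18.6% of all genes, the log2 fold changes of the 3 genes were -0.47, -0.43 and -0.45 (edgeR adjusted p = 1.96e-04, 2.08e-05 and 2.24e-06), smaller in size and past the threshold. Without both libraries that stood apart, a fit that called 26.2% of all genes, they were -0.66, -0.57 and -0.65. The calls of all 3 genes were lost without control replicate 2 (log2 fold changes of -0.58, -0.51 and -0.57 in the same order) or without Pdcd1f/fLysMcre replicate 1 (-0.62, -0.56 and -0.61), and those of C1qa and C1qb without Pdcd1f/fLysMcre replicate 2 (-0.53 and -0.47).

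The shares of the chains were close in both genotypes. Of the summed C1q counts, C1qa made up 33.4% ± 0.786 in the controls and 32.8% ± 0.359 in Pdcd1f/fLysMcre TAMs (SD, n = 3), C1qb 40.8% ± 0.699 and 41.7% ± 0.191, and C1qc 25.8% ± 0.0867 and 25.5% ± 0.450. The groups overlapped for each chain. The 3 genes together took 0.280%, 0.350% and 0.372% of all counts in the control libraries and 0.225%, 0.196% and 0.242% in the Pdcd1f/fLysMcre libraries. The groups did not overlap. These ratios and those that follow, 10 in all, were chosen after values of these genes were seen and are given as values, since an exact permutation test of 3 against 3 libraries cannot give a p below 0.1.

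Of 8 macrophage markers, 4 were lower and 0 higher at the threshold, where 3.01% and 2.42% of all genes tested were. Among the 4 were Mertk, a receptor for the uptake of apoptotic cells (log2 fold change -0.61), Adgre1, which encodes F4/80 (-0.38), and Csf1r, the receptor for the macrophage growth factor CSF1 (-0.32). Itgam (-0.16), Fcgr1 (-0.21), Cd68 (-0.06) and Cd14 (0.15) did not pass, and Cd14 had higher values in every Pdcd1f/fLysMcre library (57131 to 57573 normalized counts) than in the controls (49222 to 53316). The C1q counts divided by the summed macrophage markers were 0.495, 0.577 and 0.599 in the controls and 0.428, 0.382 and 0.452 in Pdcd1f/fLysMcre TAMs, without overlap. The ratio of C1qa to Mertk was 8.86 ± 1.71 and 8.85 ± 1.17 and that of C1qa to Adgre1 was 1.62 ± 0.216 and 1.39 ± 0.168 (SD, n = 3), and both overlapped. The ratio of C1qa to Csf1r was 0.778 ± 0.0778 and 0.637 ± 0.0363 (SD, n = 3), without overlap. Markers of monocytes summed to 23767 to 25532 normalized counts in the controls and 22227 to 26208 in Pdcd1f/fLysMcre TAMs, and 0 of 4 passed the test with edgeR. Markers of dendritic cells summed to at most 322.7 in the controls and at least 322.9 in Pdcd1f/fLysMcre TAMs (246 to 323 and 323 to 392), so the groups did not overlap, and 0 of 4 tested passed the threshold. Neutrophil markers summed to 6583 to 6776 and 5501 to 5638, where Csf3r (log2 fold change -0.51) and Mmp8 (-0.48) were lower, S100a8 (0.23), S100a9 (0.12), Cxcr2 (0.03) and Retnlg (-0.95) did not pass, and Ngp and Camp were near 0. Markers of endothelium summed to 1961 to 2064 and 1614 to 1705, without overlap, where 1 of 4, Pecam1, was lower (-0.62). Markers of fibroblasts and stroma summed to 3084 to 3329 and 2943 to 3238, where 1 of 6 tested, Col1a2, was lower (121 to 146 and 52.1 to 75.2 normalized counts). The part of these differences in the result was not tested.

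Cfb (ENSMUSG00000090231, chr17:34856374-34862518, minus strand) encodes factor B, the protease of the alternative pathway convertase. It had 405, 507 and 597 normalized counts in the control libraries and 285, 244 and 263 in the Pdcd1f/fLysMcre libraries. All Pdcd1f/fLysMcre libraries were below all controls, and the mean went from 503 ± 95.9 to 264 ± 20.6 (SD, n = 3). The log2 fold change was -0.93 (SE 0.14, edgeR adjusted p = 0.00518). It was past the threshold in all 16 alternative fits, with log2 fold changes between -1.07 and -0.79, those without 1 library included.

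C6 (ENSMUSG00000022181, chr15:4727175-4814967, plus strand), a terminal component, was near the limit of detection. It had 17, 14 and 15 raw counts in the control libraries and 0, 3 and 3 in the Pdcd1f/fLysMcre libraries, or 15.9 ± 0.423 and 1.94 ± 1.68 normalized counts (SD, n = 3). The 0 counts of Pdcd1f/fLysMcre replicate 1 allow a level of up to 0.0583 CPM (3 counts). Summed over libraries the counts were 46 and 6, a ratio of 0.120 corrected for library size, with a 95% exact binomial interval of 0.0418 to 0.281 that covers counting error only. The fitted log2 fold change was -2.98 (SE 0.63, edgeR adjusted p = 0.0226). C6 passed the filter on low counts only through the control libraries, where it is high, so it could not have been called higher. Leaving out 1 library kept the call only without control replicate 1, and the adjusted p over the other 5 such fits was between 0.0515 and 0.1, with log2 fold changes between -3.39 and -2.40.

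C3 (ENSMUSG00000024164, chr17:57203970-57228136, minus strand), the component on which all pathways meet, had 21977, 23998 and 24979 normalized counts in the controls and 22395, 19936 and 22870 in Pdcd1f/fLysMcre TAMs. The groups overlapped. The log2 fold change was -0.12 (95% interval -0.29 to 0.05, edgeR adjusted p = 0.355), and -0.03 with the GC and length offsets. The ratio of C1qa to C3 counts was 2.21 ± 0.236 in the controls and 1.58 ± 0.0636 in Pdcd1f/fLysMcre TAMs (SD, n = 3), without overlap.

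Cfp (ENSMUSG00000001128, chrX:20925454-20931555, minus strand) encodes properdin, which stabilizes the alternative pathway convertase. It had 28131, 35146 and 37158 normalized counts in the controls and 29083, 26011 and 31070 in Pdcd1f/fLysMcre TAMs, where control replicate 1 lay within the range of the other group. The log2 fold change was -0.22 (95% interval -0.45 to 0.01, edgeR adjusted p = 0.228). Without control replicate 1 it was -0.34 (edgeR adjusted p = 0.00902), and with the GC and length offsets it was -0.09 (edgeR adjusted p = 0.241). Cfp is X-linked, and the genotypes also differed in sex transcripts. Xist had 17318 to 26511 normalized counts in the controls and 8530 to 13137 in Pdcd1f/fLysMcre TAMs, and 4 Y-linked genes summed to 1545 to 1914 and 6267 to 7233. In these libraries the share of female cells and the genotype cannot be told apart, for Cfp or for any other gene reported here.

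The genes of the anaphylatoxin receptors had small positive values that did not pass the test. C3ar1 (ENSMUSG00000040552, chr6:122847138-122856161, minus strand), the receptor for C3a, had 29779, 28787 and 29545 normalized counts in the controls and 32201, 33152 and 30523 in Pdcd1f/fLysMcre TAMs. The groups did not overlap, with a log2 fold change of 0.12 that did not pass the test (95% interval -0.01 to 0.25, edgeR adjusted p = 0.228) and was 0.04 with the GC and length offsets. C5ar1 (ENSMUSG00000049130, chr7:16246743-16259540, minus strand), the receptor for C5a, had 16321, 16574 and 17754 in the controls and 17543, 18130 and 17221 in Pdcd1f/fLysMcre TAMs, and the groups overlapped. Its log2 fold change was 0.06 (95% interval -0.07 to 0.20, edgeR adjusted p = 0.545), and 0.02 without both libraries that stood apart by GC content. The ratio of C3ar1 to C5ar1 counts was 1.74 ± 0.0803 in the controls and 1.81 ± 0.0346 in Pdcd1f/fLysMcre TAMs (SD, n = 3), with overlap.

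**Figure D3:**
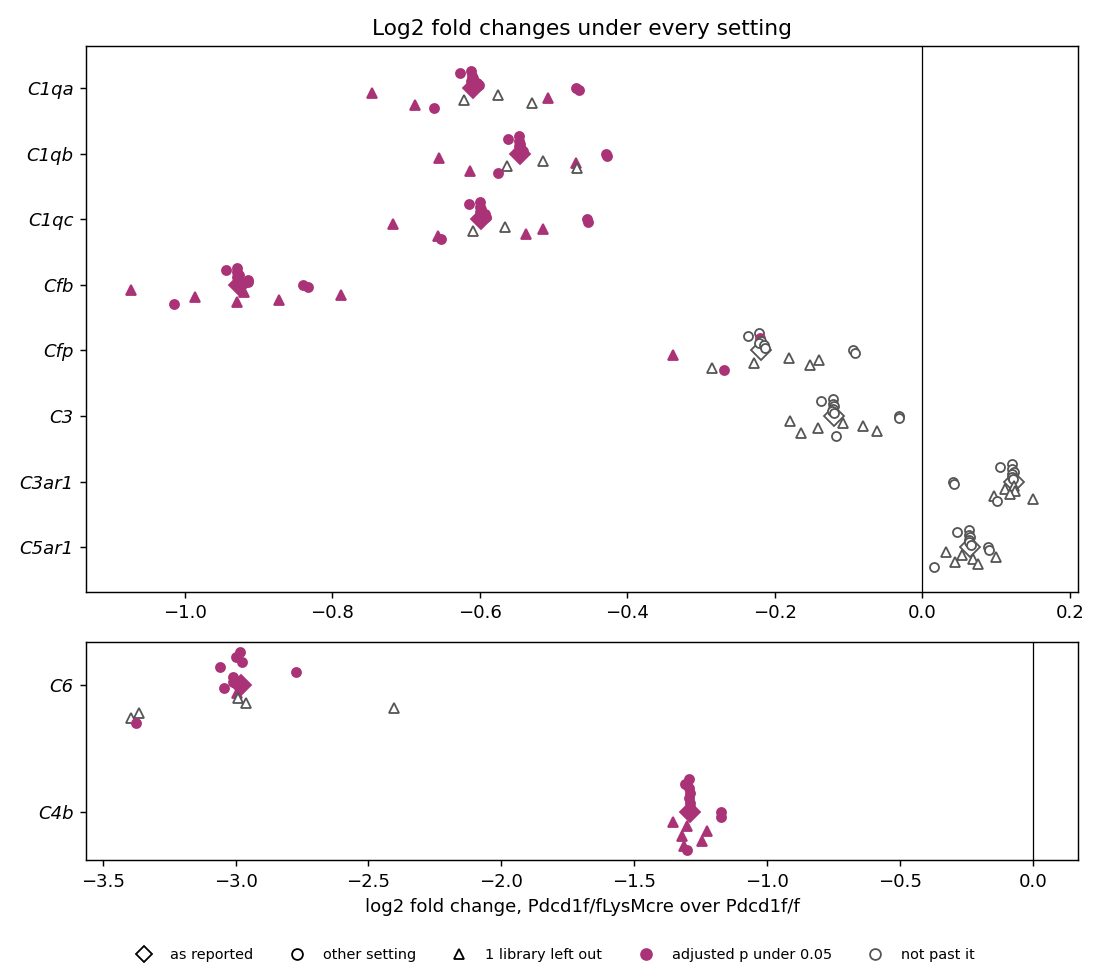
Log2 fold change of each of the 9 genes, and of C4b, as reported (diamond), with another setting (circle) and with 1 library left out (triangle); filled symbols have an adjusted p under 0.05. Every value of C1qa, C1qb, C1qc, Cfb, C6 and C4b is negative. Cfb and C4b are past the threshold throughout, and C6 is on a wider axis because its values reach -3.39.

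The rest of the complement system was followed with a list of 45 further genes. Of these, 13 had 0 counts in every library and 20 passed the filter on low counts. At the threshold 3 were lower in Pdcd1f/fLysMcre TAMs (C4b and Cd55 among them), 1 was higher (Itgax) and 16 passed in neither direction, beside 3.01% lower and 2.42% higher of all genes tested. The 20 genes had a median log2 fold change of -0.02. None of the 6 other terminal components listed passed the filter. Of these, 3 had 0 counts in every library, and C9 had 13, 5 and 8 raw counts in the controls and 5, 13 and 9 in Pdcd1f/fLysMcre TAMs. Cfd, which encodes the protease that cleaves factor B, had 0 counts in every library.

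C4b (chr17:34728380-34743882), cleaved by C1s to form the classical convertase, had 1761, 1867 and 2079 normalized counts in the controls and 809, 725 and 794 in Pdcd1f/fLysMcre TAMs. The groups were far apart, at a log2 fold change of -1.29 (SE 0.09, edgeR adjusted p = 2.19e-05). Its near-identical neighbour C4a, with which it could share reads, had a mean of 28.3 normalized counts in the controls and 27.6 in Pdcd1f/fLysMcre TAMs. C2, the other part of that convertase, had 32.7 ± 18.7 and 32.6 ± 5.30 (SD, n = 3; log2 fold change 0.02, edgeR adjusted p = 0.982) and shares exons with its neighbours. C1ra, the protease bound to C1q, was named after its values were seen. It had 272, 280 and 294 normalized counts in the controls and 221, 185 and 209 in Pdcd1f/fLysMcre TAMs, without overlap, with a log2 fold change of -0.46 that did not pass the test (SE 0.12, edgeR adjusted p = 0.0526). It passed in 7 of 16 alternative fits, among them DESeq2 (adjusted p = 0.0208) and the GC and length offsets (edgeR adjusted p = 0.0190).

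Of the membrane regulators, 1 of 5 tested passed as lower, beside 3.01% of all genes. Cd55, the membrane-bound decay-accelerating factor, had 1015, 979 and 877 normalized counts in the controls and 628, 664 and 545 in Pdcd1f/fLysMcre TAMs (log2 fold change -0.64, SE 0.10, edgeR adjusted p = 0.00508). Its groups did not overlap, and it was past the threshold in all 16 alternative fits. The membrane regulator Cr1l (Crry) had 4204 ± 269 and 4310 ± 304 (SD, n = 3; log2 fold change 0.04, 95% interval -0.13 to 0.20, edgeR adjusted p = 0.798), with the sign turned by the GC and length offsets (-0.12). Cd59a, an inhibitor of the membrane attack complex, had a log2 fold change of 0.23 (edgeR adjusted p = 0.266) and Cd46 one of 0.44 at a mean of 20.7 normalized counts in the controls (edgeR adjusted p = 0.546). Serping1, the inhibitor of C1r and C1s, had 12, 2 and 7 raw counts in the controls and 4, 5 and 9 in Pdcd1f/fLysMcre TAMs and was not tested.

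Among receptors, Itgax, which encodes CD11c, a chain of complement receptor 4 and also a marker of dendritic cells, had 1606, 1738 and 1789 normalized counts in the controls and 2271, 2213 and 2206 in Pdcd1f/fLysMcre TAMs, without overlap (log2 fold change 0.38, SE 0.07, edgeR adjusted p = 0.0108). That call was lost without control replicate 2 (log2 fold change 0.40) or without Pdcd1f/fLysMcre replicate 1 (0.37). Itgam, the CD11b chain of complement receptor 3 and part of the sort gate, had 18697 ± 1399 and 16670 ± 1473 (SD, n = 3; log2 fold change -0.16, edgeR adjusted p = 0.237), and shares 3450 of 5024 exon bases with Gm49368. Itgb2, the common beta chain (log2 fold change 0.02, edgeR adjusted p = 0.912), and Cd93 (-0.02, edgeR adjusted p = 0.909) had small values. Their sign turned in some of the alternatives. C5ar2, the second receptor for C5a, had 411 ± 36.5 and 374 ± 8.07 (SD, n = 3; log2 fold change -0.13, edgeR adjusted p = 0.458). Vsig4, a complement receptor of resident macrophages, had 3, 3 and 4 raw counts in the controls and 6, 0 and 3 in Pdcd1f/fLysMcre TAMs and was not tested.

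**Figure D4:**
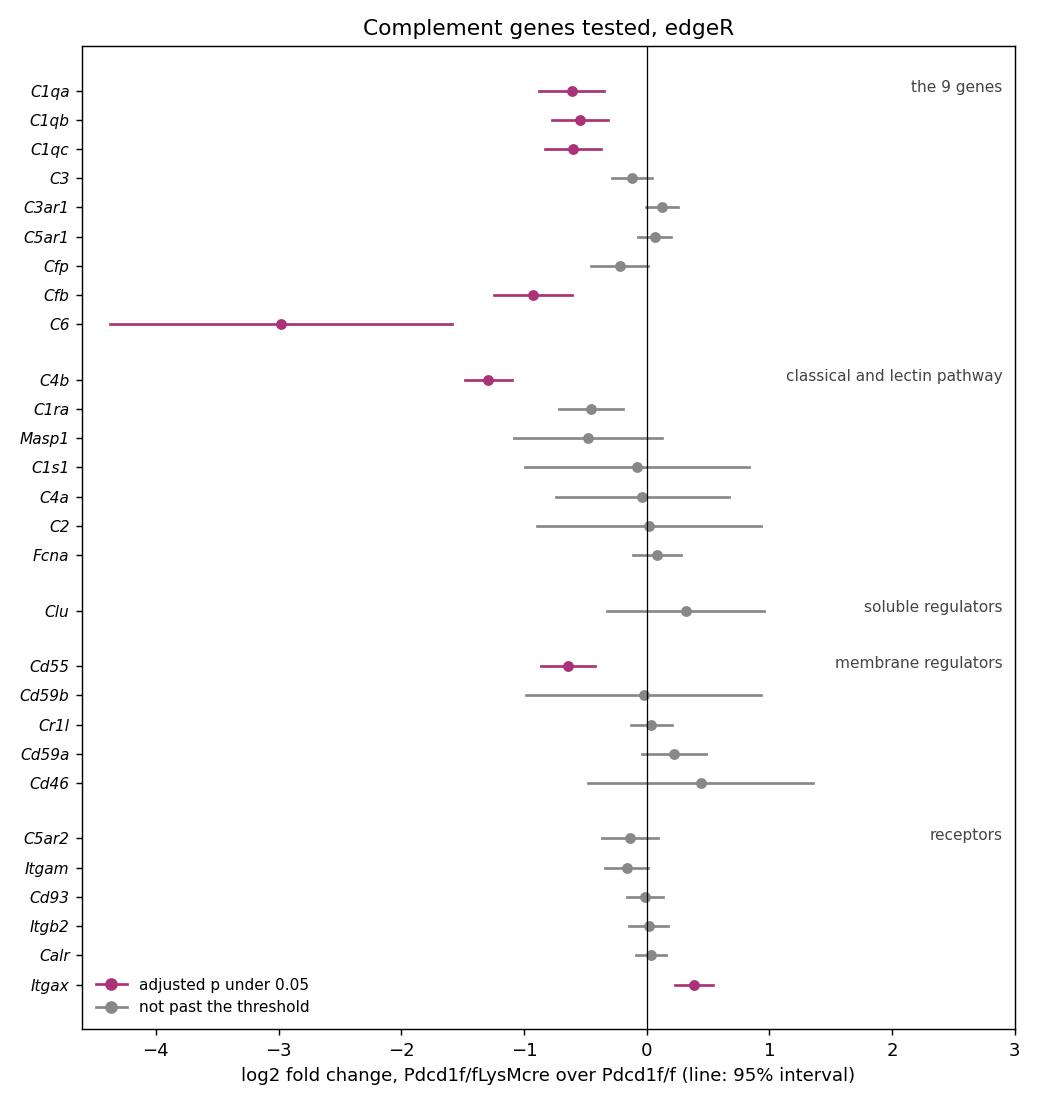
Log2 fold change, Pdcd1f/fLysMcre over Pdcd1f/f, of complement genes tested with edgeR, with 95% intervals; purple marks an adjusted p under 0.05 and grey the others. The calls drawn at the negative side are C1qa, C1qb, C1qc, Cfb, C6, C4b and Cd55, and Itgax is the call at the positive side.

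Other genes within 500 kb of each of the 9 were counted, beside the 5.43% of all genes tested that passed in either direction. Around C1qa, 8 other genes were tested and 3 were lower, its neighbours C1qb and C1qc and Ephb2, an ephrin receptor gene. Around Cfb, which lies in the major histocompatibility complex with C4b and C2, 51 other genes were tested and 2 were lower (C4b and Lst1). Around C3, 1 of 22 was lower (Adgre1). Around C3ar1, 5 of 20 passed the test, with Clec4b1 and Gdf3 lower and Clec4e, Clec4n and Dppa3 higher. By edgeR 0 passed around C5ar1 (of 18), Cfp (of 15) and C6 (of 8), where 4, 3 and 3 had an unadjusted p under 0.05, beside 24.2% of all genes tested, and DESeq2 called 2, 1 and 1, beside 10.6%.

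Similarity of profiles over the 6 libraries was measured as the root mean square difference of log2 CPM, each gene centred on its own mean, so that a smaller value is more alike. The profiles keep the difference between the genotypes, so near genes have similar fold changes by construction. For instance, the log2 fold change was -0.60 for Ucp2 and -0.61 for C1qa. Shared regulation was not tested. For C1qa the nearest genes were C1qc (0.0327) and Ucp2 (0.0369), for C1qb they were Nxn (0.0245) and Ucp2 (0.0288), and for C1qc they were Ucp2 (0.0223) and Htra3 (0.0288). C1qb was the 4th nearest gene to C1qa, and C1qa the 11th nearest to C1qb. Cfb was nearest to Fkbp11 (0.0677) and Cbr2 (0.0728), and C6, whose few counts give a noisy profile, to Epor (0.311) and Lyplal1 (0.537). Ucp2 encodes a mitochondrial uncoupling protein and Epor the erythropoietin receptor.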

How the data were processed

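RNA from sorted TAMs was made into stranded polyA libraries and sequenced as paired-end reads. Per the study's methods and the submitters' processing notes, the authors checked reads with FastQC (0.11.5), removed adapters with Cutadapt (2.5), aligned to GRCm38 with STAR (2.7.3a) and counted reads per Ensembl gene with featureCounts (Subread 1.6.2). The strand and multi-mapping settings of the counting are not given in the sources used here. The authors deposited these raw counts and, for 16552 genes, normalized counts (signal), which equal the counts divided by a DESeq2 (1.24.0) size factor of 0.895 to 1.08 for each library. Normalized counts are printed with SD over 3 libraries.

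Genotypes came from the labels. The raw counts were fitted with edgeR (4.0.16, R 4.3.3): filterByExpr (minimum count 10, minimum total count 15), TMM, robust glmQLFit and glmQLFTest (two-sided), with Benjamini-Hochberg adjustment over 14469 genes and a threshold of 0.05. Standard errors (SE) are the log2 fold change over the root of F. Ratios between genes are given per library group, with no test. Positions, exon lengths, overlaps and GC content came from the GENCODE annotation of GRCm38, which paired 14454 of the tested genes with a GC value, and promoters from RefSeq. Alternatives were RLE factors, library size alone, other count filters (1 or more counts in any library, 10 or more in every library), DESeq2 (1.42.0), limma-trend (3.58.1) on log2(value + 1), offsets for GC content and length (loess span 0.5), the replicate number as a block, fits without each library in turn, a stricter threshold (0.01) and, added after the data were seen, both libraries that stood apart by GC content left out. The genes, lists and tests were chosen with earlier results of these data known. The genes named are the 9, other complement genes past the threshold, a set of regulators and receptors, C2, and the 2 nearest profiles of each gene past the threshold; some genes that the rule names are not reported here, and C1ra, C4a and the neighbouring genes were added after their values were seen. No library was the duplicate of another of its genotype (chi-square per gene of 5.55 to 43.5). On counts simulated for this comparison, edgeR recovered 58 of 67 genes changed 1.5-fold, 65 of 67 changed 2-fold and 66 of 66 changed 4-fold, with 6 false calls among 14445 genes tested. The simulation gave all genes the same dispersion and the libraries no shift with GC content. Its changed genes were drawn only from genes with higher mean counts than C6. These figures therefore check the code and do not give the recovery or the false calls in the real libraries. A count of 0 allows up to 3 counts, 0.0583 to 0.0717 CPM by library.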

Additional observations from a re-analysis of the deposited data

How the results depend on the processing

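Of 350 values of 22 genes under the alternatives, 310 kept their direction and side of the threshold, 15 lost the call, 11 gained it and 14 turned sign. The number of the 9 genes past the threshold (5) was 2 at a threshold of 0.01 and 1 to 6 when 1 library was left out, and 6 without both libraries that stood apart by GC content. Cfp passed without both of these (log2 fold change -0.27) and with all genes of at least 1 count tested (-0.22). The filter of at least 10 counts in every library removed C6. The number of other complement genes past it (4) stayed within 3 and 6. Over all genes the 786 calls became 1951 with at least 1 count in any library, 1528 with DESeq2, 2698 with GC and length offsets, 2767 with these offsets and the replicate block, 3757 without both libraries, 283 at a threshold of 0.01 and 222 to 3181 with 1 library left out. The offsets moved the split from 436 lower and 350 higher to 1153 lower and 1545 higher. The causes were not tested. With the replicate number as a block, 5 of the 9 genes, 4 other complement genes and 1027 genes in all passed. Deviations of same-numbered libraries had correlations of -0.0138, -0.0915 and 0.200, beside -0.236 to 0.219 for differently numbered ones. The labels state no pairing, and so few correlations cannot decide whether same-numbered libraries share more than a number. Not every library correlated best with its own number.

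The values that turned sign were small and did not pass the test as reported. C2 (0.02) ranged from -0.37 to 0.50 with 1 library left out and was -0.45 without both libraries that stood apart. Cr1l (0.04) was -0.12 with the GC and length offsets, -0.12 with these and the block, and ranged from -0.0158 to 0.0826 with 1 library left out. Itgb2 (0.02) was -0.00125 by library size alone, -0.0139 without both libraries, and ranged from -0.0508 to 0.0592 with 1 library left out. Cd93 (-0.02) ranged from -0.0429 to 0.0238 with 1 library left out. Depth limits C6, C2, Cd46 and the genes not tested, whose levels rest on few counts.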
